A study of Mus musculus with 12 samples.

Results

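The genes described here are 57 class II odorant receptor genes of mouse chromosome 19, whose symbols run by number from Olfr1417 to Olfr1505. They were taken by symbol from a table of 39395 genes, and 18 symbols of this range that end in -ps were dropped. The rule itself uses no measured value. The table holds 1266 odorant receptor genes, of which 917 are class II genes without -ps, so the 57 genes are set against 860 other class II genes. All 57 are annotated on chromosome 19 as protein-coding, 31 on the plus and 26 on the minus strand. Another 3 annotated receptor genes of this range, Olfr1444, Olfr1474 and Olfr1497, were not analysed here.

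Odorant receptors are G protein-coupled receptors on the cilia of olfactory sensory neurons. Each mature neuron expresses a single receptor gene, chosen from the whole repertoire, so the RNA of a receptor gene in bulk tissue follows both the number of neurons that chose it and the RNA in each of them. The number of neurons and the RNA per neuron cannot be told apart here. Class I receptor genes lie in a single cluster on chromosome 7, whereas class II genes lie in many clusters across the genome. A bound receptor acts through the G protein subunit Gnal, adenylyl cyclase Adcy3 and a cyclic nucleotide-gated channel that holds Cnga2. Among the genes described here, Olfr1440, also called MOR215-1, is known as a receptor for musk odorants such as muscone.

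The olfactory mucosa of 12 male mice at postnatal day 30 was profiled by strand-specific, ribodepleted total RNA sequencing, with 1 library per animal. There were 6 deletion animals, labelled delta large deletion, and 6 wild-type animals, all of the mixed strain 129S6;C57BL/6J. The deletion removes 408217 bp of chromosome 7 (chr7:102509797-102918014, GRCm38), an interval that the labels tie to an enhancer of class I receptors, and its zygosity is not given. No chromosome 19 gene lies in it, so the comparison asks how class II genes on another chromosome are expressed without it.

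The 29 listed genes that overlap the deleted interval had 0 or 1 read in each deletion library, against 1507 to 1994 reads in each wild-type library. Reads per library ranged from 10091239 to 18612011 in deletion animals and from 13942401 to 18044908 in wild-type animals. Deletion libraries 2 and 3 stood apart, with reads on 80.6% and 94.6% of listed genes, against 67.2% to 75.6% in the other deletion libraries and 65.2% to 69.3% in the wild-type libraries. All 15 mature olfactory sensory neuron markers had reads in every library. Omp, the olfactory marker protein, averaged 56675 ± 7738 normalized counts in deletion animals and 60163 ± 9286 in wild-type animals (SD, n = 6 each). A normalized count here is a read count divided by the library's size factor. Each animal is 1 replicate, so p-values set the difference between genotypes against the spread between animals.

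By gene start, the 57 genes fall into 4 clusters, defined as runs in which neighbouring starts are under 100 kb apart. Cluster 1 holds 4 genes, Olfr1417 to Olfr1420, over 71.3 kb (chr19:11826803-11898079). Cluster 2 holds 13 genes, Olfr1423 to Olfr1441, over 391.8 kb (chr19:12031787-12423569). Cluster 3 holds only Olfr1442 and Olfr1443 (chr19:12670439-12683851). Cluster 4 holds the other 38 genes, Olfr1445 to Olfr1505, over 1038 kb (chr19:12883855-13921866).

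The genes are related copies, and their coding sequences show how closely. Over 1596 pairs of GENCODE M21 coding sequences (921 to 1077 bp, GRCm38), the median identity was 56.8%. It was 61.2% within a cluster, 55.8% between clusters and 74.1% between chromosomal neighbours. For 23 of the 57 genes the closest other gene exceeded 90% identity, and for 47 it exceeded 80%. The closest gene was a direct neighbour for 26. At 8 pairs the identity exceeded 95%, the highest being Olfr1505 and Olfr1502 at 97.5%. The first 150 coding bases of 3 such pairs follow, 5′ to 3′ on the coding strand, because the counts of these genes depend on which copy a read is assigned to. Olfr1505 (chr19:13913530-13921866) and Olfr1502 (chr19:13861795-13862745) are on the plus strand. Olfr1417 (chr19:11826803-11839219), Olfr1418 (chr19:11852587-11861066), Olfr1472 (chr19:13453280-13456086) and Olfr1475 (chr19:13479252-13480196) are on the minus strand. Capitals mark bases that differ within a pair, 4 in the first pair, 1 in the second and 6 in the third.
Olfr1505: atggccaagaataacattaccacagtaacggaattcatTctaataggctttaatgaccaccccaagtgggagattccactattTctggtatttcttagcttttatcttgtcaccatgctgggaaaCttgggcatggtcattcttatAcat
Olfr1502: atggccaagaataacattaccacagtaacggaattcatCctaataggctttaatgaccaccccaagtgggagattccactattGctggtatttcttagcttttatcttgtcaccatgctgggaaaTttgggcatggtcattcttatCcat
Olfr1417: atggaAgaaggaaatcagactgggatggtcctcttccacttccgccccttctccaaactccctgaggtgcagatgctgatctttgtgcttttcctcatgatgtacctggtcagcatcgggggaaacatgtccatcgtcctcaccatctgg
Olfr1418: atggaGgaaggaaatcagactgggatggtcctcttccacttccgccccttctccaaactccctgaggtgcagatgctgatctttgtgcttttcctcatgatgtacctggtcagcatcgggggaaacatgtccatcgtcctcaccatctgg
Olfr1472: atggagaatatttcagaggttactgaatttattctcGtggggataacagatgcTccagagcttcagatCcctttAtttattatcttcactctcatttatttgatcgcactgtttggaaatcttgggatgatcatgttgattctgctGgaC
Olfr1475: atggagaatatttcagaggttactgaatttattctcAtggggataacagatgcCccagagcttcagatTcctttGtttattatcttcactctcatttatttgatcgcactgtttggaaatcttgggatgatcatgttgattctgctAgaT

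Promoter windows, from 250 bases before to 50 bases after the RefSeq gene start (GRCm38.p6), existed for 53 of the 57 genes. In 9 of them the RefSeq start lay within 100 bp of the GENCODE start. In the other 44 it lay a median of 3526 bp downstream, so those windows may not hold the promoter. Among these 44, the windows of Olfr1417, Olfr1418 and Olfr1472 run into the coding starts shown above. Of the 9, Olfr1436, Olfr1445, Olfr1453, Olfr1475 and Olfr1502 have single-exon models little longer than the coding sequence. Their windows may not hold the promoter either. Both strands were searched for CCCNNGGG, the core bound by Ebf factors, and for TAATTA, a core bound by homeodomain factors such as Lhx2 and Emx2. Both motifs read the same on either strand, and no window of these genes held both. CCCNNGGG occurred in 1 of 53 windows (1.89%), against 3.33% of the windows of other class II genes and 13.7% of all 32851 windows. TAATTA occurred in 11 of 53 (20.8%), against 18.8% of other class II windows and 5.29% of all windows. Since many windows of these genes may miss the promoter, the shares may set unlike regions side by side. The windows of 3 genes near the GENCODE start that hold a motif are shown to let the matches be seen, with the motif in capitals. Olfr1443 (plus strand, chr19:12677916-12678215) holds CCCNNGGG 126 bases before the start. Olfr1434 (plus strand, chr19:12279604-12279903) and Olfr1437 (minus strand, chr19:12325017-12325316) hold TAATTA 158 and 3 bases before it. A match describes letters and is no evidence of binding.
Olfr1443: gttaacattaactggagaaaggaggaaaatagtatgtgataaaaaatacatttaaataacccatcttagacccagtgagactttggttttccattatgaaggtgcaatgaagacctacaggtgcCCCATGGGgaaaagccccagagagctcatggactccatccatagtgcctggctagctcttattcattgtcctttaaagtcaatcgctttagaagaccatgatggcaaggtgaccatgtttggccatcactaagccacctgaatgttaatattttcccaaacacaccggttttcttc
Olfr1434: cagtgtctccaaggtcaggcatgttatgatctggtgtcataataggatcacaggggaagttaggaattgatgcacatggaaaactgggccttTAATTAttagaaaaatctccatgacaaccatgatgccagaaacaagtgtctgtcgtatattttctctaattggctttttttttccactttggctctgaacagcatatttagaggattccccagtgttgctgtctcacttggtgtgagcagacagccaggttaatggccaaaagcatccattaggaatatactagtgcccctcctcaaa
Olfr1437: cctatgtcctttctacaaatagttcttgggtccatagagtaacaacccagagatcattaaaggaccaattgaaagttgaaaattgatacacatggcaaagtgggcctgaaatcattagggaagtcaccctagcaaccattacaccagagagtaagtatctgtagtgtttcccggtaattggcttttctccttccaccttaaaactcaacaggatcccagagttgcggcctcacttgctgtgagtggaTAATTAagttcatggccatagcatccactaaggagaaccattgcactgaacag

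All 57 genes had reads, 50406 in all, and 51 of them had at least 1 read in every library. Per library they held 3143 to 5940 reads. Their levels spanned a wide range: 15 genes averaged at least 100 normalized counts over the 12 libraries and 8 averaged under 10. Per kb of annotated exon, the median gene had 16.5 normalized counts, against 20.1 for the other class II genes. In 12 of 12 libraries the median of the chromosome 19 genes was below that of the other class II genes. The highest per kb among them, Olfr1428, reached 83.1, while the highest other class II gene reached 570 per kb. The order of the 57 genes was nearly the same in both genotypes, with a Spearman correlation of 0.984 between the genotype means, given as a description across genes.

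**Figure D1:**
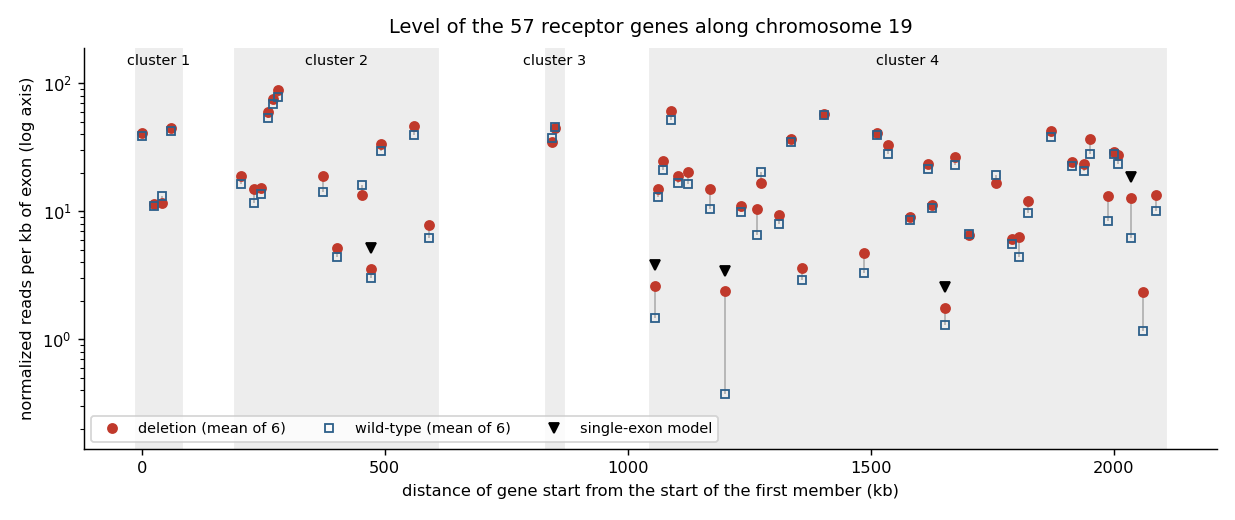
Mean level of each of the 57 genes (normalized counts per kb of exon, log axis) against the distance of its start from the start of Olfr1417 (kb), with filled circles for 6 deletion animals and open squares for 6 wild-type animals. Levels range from 1.37 to 83.1 per kb over all animals, Olfr1426, Olfr1427 and Olfr1428 form the highest run, and the 5 genes with single-exon models (triangles) lie low apart from Olfr1502.

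The receptor with the most reads was the musk receptor gene Olfr1440 of cluster 2. Its lowest, median and highest normalized counts were 275, 357 and 416 in deletion animals, against 231, 307 and 378 in wild-type animals. The groups overlapped, and 5 of 6 deletion animals lay above the wild-type median. The log2 fold change was 0.23 ± 0.11 (SE), with an adjusted p of 0.955 (limma, Benjamini-Hochberg over all 17320 genes tested). Per kb of exon, Olfr1440 stood at 46.1 in deletion animals and 39.3 in wild-type animals.

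Second by normalized count was Olfr1448 of cluster 4, with 223, 273 and 304 as lowest, median and highest in deletion animals, against 183, 222 and 283 in wild-type animals. All 6 deletion animals lay above the wild-type median, yet the groups overlapped. Olfr1426, Olfr1427 and Olfr1428 of cluster 2 are direct neighbours on the minus strand, and all 3 were among the 10 highest. Olfr1427 had 235, 243 and 283 in deletion animals, against 203, 225 and 271 in wild-type animals. Olfr1426 averaged 200.4 ± 25.4 in deletion animals and 178 ± 32.0 in wild-type animals (SD, n = 6 each). Olfr1428 averaged 187 ± 21.7 in deletion animals and 167 ± 30.1 in wild-type animals. In all 3 neighbours the groups overlapped, with log2 fold changes of 0.17, 0.13 and 0.18 in the order of their numbers.

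Among the rest of the 10 highest, Olfr1443 and Olfr1442 are the pair that forms cluster 3. Olfr1443 had 138, 199 and 238 in deletion animals, against 171, 198 and 239.6 in wild-type animals. Olfr1442 averaged 127 ± 23.1 in deletion animals and 135 ± 33.9 in wild-type animals, and the log2 fold changes of the pair were -0.04 and -0.07. With 1 animal left out in turn they ran from -0.10 to 0.06 for Olfr1443 and from -0.18 to 0.03 for Olfr1442, so neither direction held. Olfr1417 and Olfr1420, the ends of cluster 1, averaged 147 ± 15.1 and 137 ± 27.2 in deletion animals, against 139 ± 20.8 and 130.5 ± 21.5 in wild-type animals. Olfr1463 of cluster 4 averaged 134 ± 31.0 in deletion animals and 131 ± 14.1 in wild-type animals, a log2 fold change of 0.01 that ran from -0.08 to 0.13 with 1 animal left out. These 10 genes held 46.3% ± 1.69 of the reads of all 57 genes in deletion animals and 47.5% ± 2.19 in wild-type animals (SD, n = 6 each; exact permutation test, two-sided p = 0.331).

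None of the 57 genes passed the test between deletion and wild-type animals. Of the 57, 50 had enough reads to be tested, and limma called 0 higher, beside 0.052% of all genes tested, and 0 lower, beside 0.445% of all genes tested (adjusted p under 0.05). The edgeR quasi-likelihood test and DESeq2 on the whole reads also made 0 calls. Of the 50, limma put 7 on the higher side at an unadjusted p under 0.05 (14.0%), beside 2.02% of all genes tested, and 0 on the lower side, beside 2.37% of all genes tested. Both other tests also gave 7 higher. This count depended on single animals: it was 12 without deletion replicate 2, 11 when wild-type replicate 2 was left out, and 4 when deletion replicate 3 or 6 or wild-type replicate 4 or 5 was left out. With no filter on low values it was 11, in a fit that also held the 7 genes left out of the main test. The share of all genes under these settings is not given here. In the authors' deposited table, 0 of the 57 genes had an adjusted p under 0.05, and the smallest was 0.988. In no gene did all deletion animals lie above all wild-type animals, which held for 0.133% of all genes tested, or all below, which held for 0.497% of all genes tested.

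Most fold changes were small and positive. Of the 50 tested genes, 43 had a positive log2 fold change (86.0%), beside 45.9% of all genes tested, with a median of 0.18 and a range from -0.30 to 0.75. The median of all genes tested was -0.01. The same held for the other class II genes: 670 of 765 tested were positive (87.6%), their median was also 0.18, 90 had an unadjusted p under 0.05 on the higher side (11.8%) and 1, Olfr221, passed the adjusted threshold. Standard errors of single genes ran from 0.09 to 0.35 with a median of 0.17, about as large as the median difference. The filter on low values left out 7 genes, so these counts describe the 50 genes that passed it. Among the 7, each had a higher mean in deletion animals, but the same share over all genes left out by the filter is not given here. Deletion libraries 2 and 3 also had reads on more listed genes than any other library, and the part of this in low genes was not tested.

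**Figure D2:**
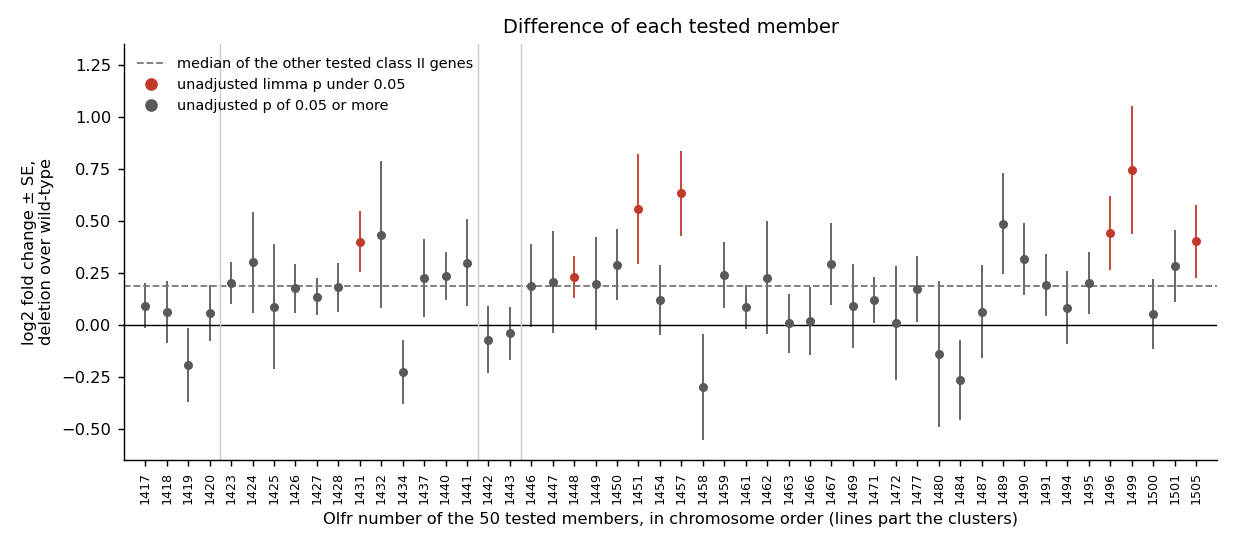
Log2 fold change of each of the 50 tested genes in chromosome order (deletion over wild-type, bars are SE, n = 6 each), with the 7 genes at an unadjusted p under 0.05 in red and the median of the other tested class II genes as a dashed line at 0.18. Most points lie above 0 and around the dashed line, 7 lie below 0, and no gene has an adjusted p under 0.05.

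The smallest p belonged to Olfr1457 of cluster 4, a gene of low level on the minus strand (chr19:13093379-13097891). Its lowest, median and highest normalized counts were 19.1, 25.7 and 38.5 in deletion animals, against 12.4, 17.3 and 20.9 in wild-type animals. All 6 deletion animals lay above the wild-type median, and the lowest of them lay below the highest wild-type animal. The log2 fold change was 0.63 ± 0.21 (SE), with an unadjusted p of 0.006 and an adjusted p of 0.674 by limma. These values rest on 160 reads over the 6 deletion libraries and 102 over the 6 wild-type libraries.

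The other genes with the smallest p on the higher side were Olfr1431, Olfr1496, Olfr1499, Olfr1505 and Olfr1448, each with an adjusted p of 0.955 by limma. Olfr1431 had 47.1, 58.5 and 73.3 in deletion animals, against 40.7, 42.2 and 59.6 in wild-type animals, where replicate 1 was the one high value (log2 fold change 0.40). Olfr1496 had 73.5, 91.4 and 109 in deletion animals, against 48.9, 61.8 and 105 in wild-type animals (0.44). Olfr1499 had 18.0, 23.6 and 34.3 in deletion animals, against 5.82, 14.99 and 25.4 in wild-type animals, the largest fold change of the 50 (0.75 ± 0.31 SE). In each of these the highest wild-type animal exceeded the lowest deletion animal. Olfr1505, the last gene of cluster 4, averaged 49.5 ± 9.86 in deletion animals and 37.4 ± 7.98 in wild-type animals (0.40), and Olfr1448 had a log2 fold change of 0.23. Olfr1451, outside the rule for named genes and named after its values were seen, is the seventh (0.56), with 25.4 ± 5.58 in deletion animals and 17.8 ± 6.72 in wild-type animals.

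Only 7 of the 50 tested genes had a negative fold change. Those with the smallest p were Olfr1434, Olfr1484, Olfr1458, Olfr1419, Olfr1442 and Olfr1480, at unadjusted p-values from 0.154 to 0.69 by limma. Olfr1434 had 32.5, 37.7 and 43.2 in deletion animals, against 34.5, 43.0 and 57.3 in wild-type animals. Olfr1484 had 40.4, 58.0 and 93.0 in deletion animals, against 65.4, 73.2 and 86.1 in wild-type animals, so the deletion animals spread over a wider range. Olfr1458, which lies next to Olfr1457 and on the same strand, had 21.5, 24.7 and 54.7 in deletion animals, against 23.0, 37.3 and 63.0 in wild-type animals (log2 fold change -0.30 ± 0.25 SE). Its sign was opposite to that of its neighbour Olfr1457, and neither passed the test. Olfr1419 of cluster 1 averaged 36.6 ± 7.97 in deletion animals and 42.0 ± 8.67 in wild-type animals. Olfr1480 averaged 14.0 ± 6.20 in deletion animals and 14.4 ± 4.00 in wild-type animals. Its log2 fold change was -0.14, and 0.18 without deletion replicate 2, whose value of 3.37 was the lowest of all 12.

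Summed over the 57 genes, deletion animals stood at 245, 265, 288, 303, 317 and 328 CPM (read counts scaled to library size), against 238, 249.6, 253, 254, 268 and 307 CPM in wild-type animals. Of the deletion animals, 2 lay above every wild-type animal, and another 2 lay above all but the highest one, wild-type replicate 2. The means were 291 ± 31.7 in deletion animals and 262 ± 24.0 in wild-type animals (SD, n = 6 each), a ratio of 1.11 that was within the spread between animals (exact permutation test, two-sided p = 0.108, 0.281 adjusted over 5 measures). The exact permutation p was 0.037 without deletion replicate 2 and also 0.037 without wild-type replicate 2. With each animal left out in turn, this p ran from 0.037 to 0.201. The summed CPM of the other class II genes had the same ratio of 1.11, 6081 ± 632 in deletion animals and 5488 ± 606 in wild-type animals.

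As a share of all class II receptor reads, the 57 genes held 4.56% ± 0.06 in deletion animals and 4.57% ± 0.29 in wild-type animals (SD, n = 6 each; exact permutation test, two-sided p = 0.983). The shares were 4.51% to 4.66% in deletion animals and 4.13% to 4.88% in wild-type animals, so the deletion animals all lay inside the wild-type range. The difference was -0.003 percentage points, and it lay between -0.09 and 0.06 when each animal was left out in turn. At least 1 read was found for 56.0 ± 0.894 of the genes in deletion animals and 55.3 ± 0.816 in wild-type animals (exact permutation test, two-sided p = 0.34).

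**Figure D3:**
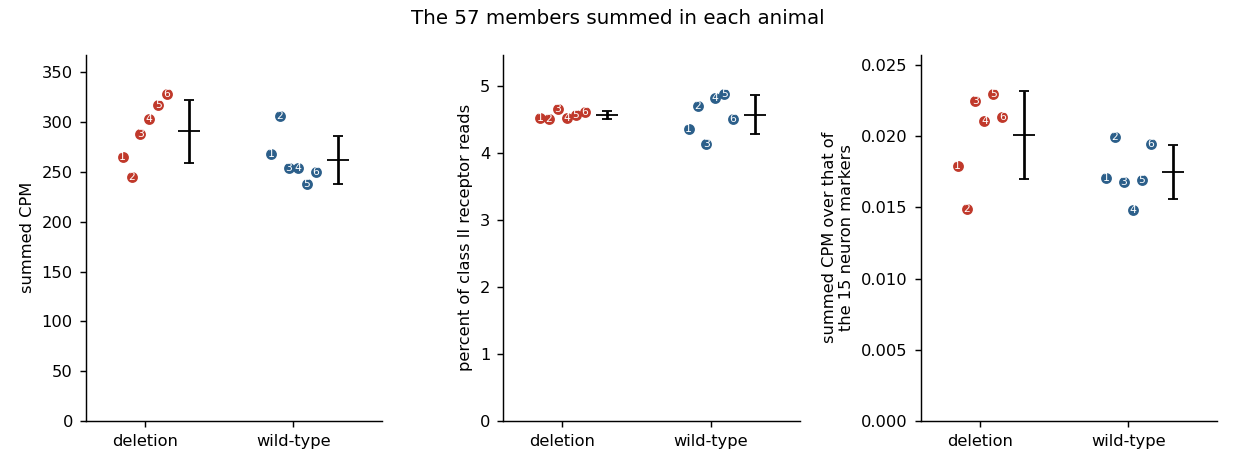
The 57 genes summed in each animal, as CPM (left), as percent of class II receptor reads (middle) and relative to the summed CPM of the 15 mature neuron markers (right), with numbered points for replicates and bars for mean ± SD (n = 6 each). Summed CPM averages 291 in deletion animals and 262 in wild-type animals with overlapping points, while the shares are 4.56% and 4.57%.

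Receptor RNA can also be set against neuron RNA. The 15 mature olfactory sensory neuron markers summed to 14595 ± 1251 CPM in deletion animals (12810 to 16410) and 15046 ± 1462 in wild-type animals (12849 to 17134). The summed CPM of the 57 genes relative to these markers was 0.0201 ± 0.0031 in deletion animals and 0.0175 ± 0.00191 in wild-type animals (SD, n = 6 each; exact permutation test, two-sided p = 0.113, 0.281 adjusted over 5 measures). Without deletion replicate 2, which had the lowest sum and the lowest ratio of the deletion animals, the p was 0.017. With each animal left out in turn, the exact permutation p of this ratio ran from 0.017 to 0.21. The 10 immature neuron markers summed to 2063 ± 151 CPM in deletion animals (1853 to 2247) and 1959 ± 77.4 in wild-type animals (1880 to 2098). The 11 markers of globose basal cells and neuronal precursors, the dividing cells that give rise to the neurons, summed to 1405 ± 103 in deletion animals (1243 to 1513) and 1315 ± 111 in wild-type animals (1180.4 to 1463). In the 3 lists limma called 0 at the adjusted threshold, and no marker was at 0 in any library. Of the mature markers 4 of 15 had a positive log2 fold change (median -0.03), of the immature markers 7 of 10 (0.05) and of the precursor markers 10 of 11 (0.14). Among all genes tested, 45.9% had a positive log2 fold change. At an unadjusted limma p under 0.05, Neurod1 of precursors (log2 fold change 0.23) and Dpysl3 of immature neurons (0.27) were on the higher side, beside 2.02% of all genes tested. Dpysl3 had 7295 to 8990 normalized counts in deletion animals, against 6508 to 7165 in wild-type animals, so the groups did not overlap. Such a gap on the higher side held for 0.133% of all genes tested, and the adjusted p of Dpysl3 by limma was 0.069. The lists for horizontal basal, sustentacular, ensheathing glia, immune, erythroid and respiratory cells also had 0 calls, with median log2 fold changes from -0.14 to 0.27. Of them, Cyp1a2 (-0.21), Muc2 (-0.37) and Cd74 (-0.25) had an unadjusted limma p under 0.05, beside 2.37% of all genes tested on the lower side. The part of cell composition in the receptor sums was not tested.

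By cluster, the 38 genes of cluster 4 held 50.6% of the reads of the 57 genes, cluster 2 held 32.6%, cluster 1 held 8.76% and cluster 3 held 8.04%. Cluster 4 summed to 149 ± 18.4 CPM in deletion animals and 131 ± 13.3 in wild-type animals (SD, n = 6 each; exact permutation test, two-sided p = 0.078, 0.123 adjusted over 3 clusters). Cluster 2 summed to 95.5 ± 10.5 CPM in deletion animals and 84.3 ± 9.4 in wild-type animals (exact permutation p = 0.082, 0.123 adjusted). In both clusters wild-type replicate 2 stood above its group, at 156 and 103 CPM against at most 132 and 84.8 in the other wild-type animals. Leaving out that animal gave p-values of 0.035 and 0.024, and leaving out deletion replicate 2 gave 0.013 and 0.035, for clusters 4 and 2 in that order. With each animal left out in turn, the exact permutation p ran from 0.013 to 0.145 for cluster 4. For cluster 2 it ran from 0.024 to 0.154. Cluster 1 summed to 24.7 ± 3.02 CPM in deletion animals and 24.0 ± 2.97 in wild-type animals (exact permutation p = 0.684). The pair of cluster 3 was only described, at 21.9 ± 3.93 CPM in deletion animals and 22.7 ± 3.24 in wild-type animals. Whether the clusters differ from one another in their change was not tested.

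Single receptor genes varied between animals of 1 genotype. The coefficient of variation (SD over mean of CPM, pooled over both genotypes) ran from 9.04% to 53.3% over the 50 tested genes, with a median of 21.5%. It exceeded 1.5 times the value that counting of reads alone would give in 31 of 50. Among tested genes with a mean of at least 50 normalized counts, Olfr1423, the first gene of cluster 2, varied least (9.04%), with 92.7 to 124 in deletion animals and 84.8 to 96.6 in wild-type animals. Counting alone gives 9.82% and 10.4% for this gene. Olfr1489 of cluster 4 varied most (33.9%), with 38.2 to 114 in deletion animals and 30 to 70.3 in wild-type animals. Counting alone gives 12% and 14.2%.

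**Figure D4:**
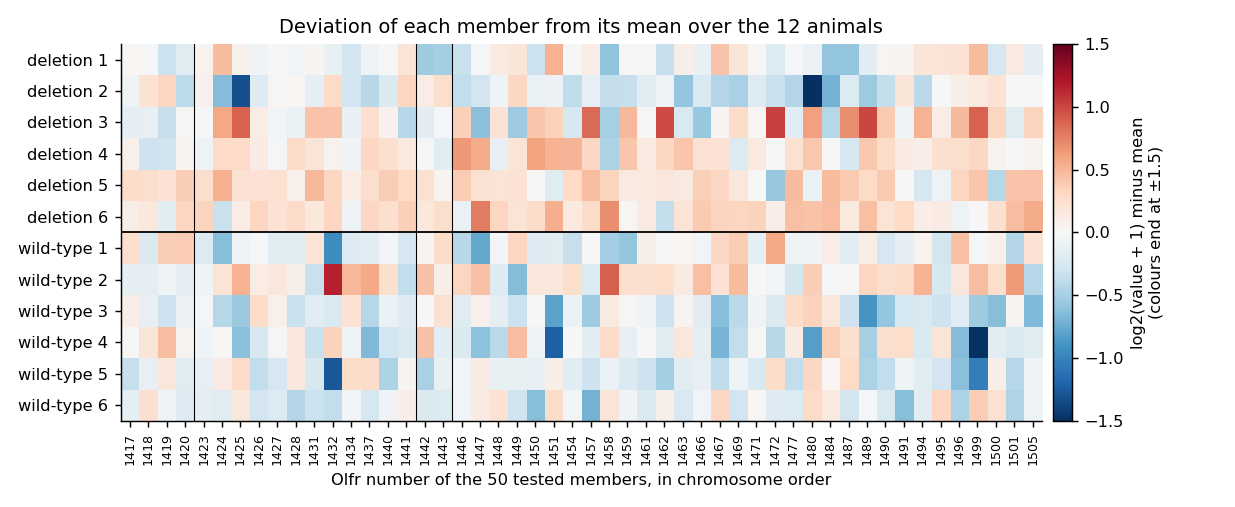
Deviation of each of the 50 tested genes (columns, chromosome order) from its mean over 12 animals on the log2(value + 1) scale, with deletion animals in the upper 6 and wild-type animals in the lower 6 lines. Single animals carry isolated strong colours, such as Olfr1480 in deletion replicate 2 (3.37 normalized counts), and many columns of deletion replicates 5 and 6 are slightly red.

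Animals differed across many of the genes at once. The median deviation of the 50 tested genes from their means was 0.25 on the log2 scale in both deletion replicates 5 and 6, and -0.18 in deletion replicate 2. Among wild-type animals it was 0.19 in replicate 2 and between -0.17 and -0.05 in the other 5. Deletion replicate 2 therefore lay lower than any wild-type animal, and wild-type replicate 2 lay above 4 of the 6 deletion animals.

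Near-identical copies were counted at unlike levels. Olfr1417 and Olfr1418, 96.3% identical and with starts 25.8 kb apart, averaged 143 and 45.5 normalized counts over all animals, and Olfr1417 was higher in 12 of 12 libraries. Per kb of exon the ratio was 3.55. Olfr1437 averaged 126 against 3.12 for its copy Olfr1436, and Olfr1501 averaged 114 against 2.81 for Olfr1504. These ratios of 40.3 and 40.6 fell to 9.64 and 14.5 per kb, since the annotated exons of Olfr1436 and Olfr1504 are far shorter (948 and 1597 bp, against 3966 and 4472 bp). Olfr1505 averaged 43.4 against 9.03 for Olfr1502, a ratio of 4.81, but only 1.24 per kb, where Olfr1505 was higher in 8 of 12 libraries. Olfr1502 has a single-exon model of 951 bp, little more than its coding sequence, so its count covers little else. Olfr1477 and Olfr1484, 96.5% identical, averaged 100.1 and 68.9, with log2 fold changes of 0.17 and -0.27. The sources used here do not say how reads shared by such copies were assigned, so each of these levels is uncertain.

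**Figure D5:**
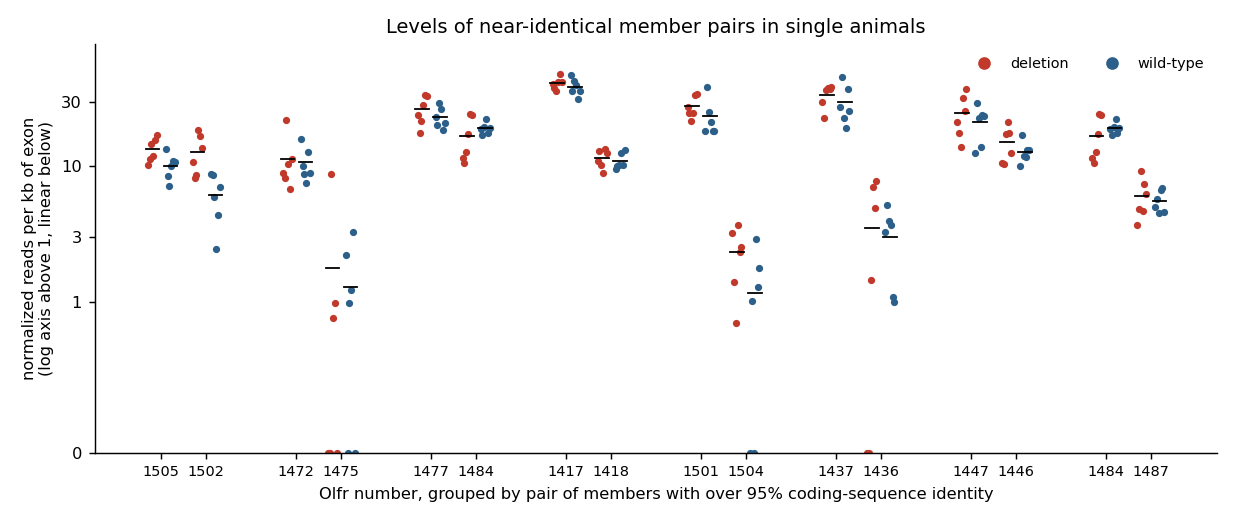
Levels (normalized counts per kb of exon, log axis above 1 and linear below) of the 8 pairs with over 95% coding-sequence identity in single deletion (red) and wild-type (blue) animals, with bars for means. Olfr1417 lies above Olfr1418 in all 12 animals, whereas Olfr1505 and Olfr1502 overlap.

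The 7 genes that failed the filter were Olfr1436, Olfr1445, Olfr1453, Olfr1465, Olfr1475, Olfr1502 and Olfr1504, and they held 204 reads over the deletion libraries and 116 over the wild-type libraries. Of them, 5 have single-exon models, and these 5 are the only such models among the 57. Olfr1502 had 7.86, 11.7 and 17.7 normalized counts in deletion animals, against 2.33, 6.15 and 8.37 in wild-type animals, with a small overlap. Olfr1465 had 2.05, 7.87 and 12.4 in deletion animals, against 0, 4.91 and 8.997 in wild-type animals. Olfr1445, the first gene of cluster 4, averaged 2.63 ± 0.941 in deletion animals and 1.46 ± 0.974 in wild-type animals. Olfr1453 and Olfr1475 were both highest in deletion replicate 3, at 6.87 and 8.24 normalized counts, against at most 2.45 and 0.939 in the other deletion animals and 1.05 and 3.11 in wild-type animals. Deletion replicate 3 is the library with reads on 94.6% of listed genes, and its part in these values was not tested.

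Genes that are no receptors also lie between these genes. Of 17 listed there, 3 were tested and limma called 0, with 0 at an unadjusted p under 0.05. Fam111a, a serine protease with a role in DNA replication, averaged 133 ± 24.6 normalized counts in deletion animals and 114 ± 13.7 in wild-type animals (log2 fold change 0.21). Zfp91, a zinc finger protein that acts as a ubiquitin ligase, averaged 3957 ± 327 in deletion animals and 3774 ± 368 in wild-type animals (0.07). The gene AC129014.2 overlaps Fam111a and had a log2 fold change of -0.04, which ran from -0.13 to 0.03 with 1 animal left out.

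None of the tested genes that receptors signal through passed the test. Of 20 tested genes of olfactory signal transduction, limma called 0, with 1 at an unadjusted p under 0.05 in each direction and a median log2 fold change of -0.04. Among all genes tested, 2.02% were higher and 2.37% lower at that unadjusted threshold. Adrbk2, a kinase that phosphorylates activated receptors, averaged 502 ± 31.9 normalized counts in deletion animals and 454 ± 23.4 in wild-type animals (0.14, adjusted p = 0.955 by limma). Slc12a2, the cotransporter that loads neurons with chloride, averaged 10662 ± 718 in deletion animals and 11810 ± 696 in wild-type animals (-0.15, adjusted p = 0.955 by limma). Gng13, a G protein gamma subunit, had 952, 1166 and 2320 in deletion animals, against 1349, 1504 and 2488 in wild-type animals (-0.38). The highest deletion value was that of replicate 2, far above the other 5.

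Of 7 tested genes for receptor chaperones and trafficking, limma called 0, with 0 at an unadjusted p under 0.05 and a median of -0.02. Rtp1 and Rtp2, which help receptors to reach the cell surface, averaged 9437 ± 740 and 6731 ± 381 normalized counts in deletion animals, against 9546 ± 765 and 6797 ± 591 in wild-type animals. By smallest p in this list came Reep1, Hspa5 and Reep6, with log2 fold changes of -0.10, -0.03 and -0.04. The sign of Reep6 turned with 1 animal left out (-0.10 to 0.01), and that of Hspa5 without deletion replicates 2 and 3 (0.01). Of 25 tested genes tied to receptor gene choice, limma called 0, with 0 at an unadjusted p under 0.05 and a median of 0.01. The Ebf factors Ebf4 and Ebf3 had log2 fold changes of -0.17 and 0.08, and Atf5, a transcription factor induced by receptor expression, had -0.10. Lhx2, a homeodomain factor needed for class II receptor expression, averaged 2917 ± 134 in deletion animals and 2805 ± 216 in wild-type animals. Adcy3 stands in both the signalling and the choice list. The mature neuron markers share genes with the signalling list and share Rtp1 and Rtp2 with the chaperone list, and Lhx2 and Ebf1 of the choice list are also among the precursor markers.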

How the data were processed

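Gene counts of 12 libraries, 6 from deletion and 6 from wild-type animals, were analysed as deposited. STAR 2.6.0 and DESeq2 are the tools, and GRCm38.p6 the genome build, per the submitters' processing notes, and the sources used here name no counter. The deposited signal values are normalized counts, that is, reads divided by a size factor, and 100% of them were whole multiples of 1 read (tolerance 0.01). The authors' log2 fold change (wild-type over deletion, the opposite sign to that used here), p-value and adjusted p-value stand in the same deposited table, and the deposited standard error and Wald score were not used. The table ended within a line, so 39395 complete genes were used. The 1 incomplete gene and any genes after it were not analysed. Positions came from GENCODE M21, matched for 96.2% of genes.

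The main test was limma 3.58.1 (R 4.3.3; trend, robust) on log2(value + 1), so fold changes understate the change of low genes. Genes passed the edgeR 4.0.16 filter (minimum count 10), and p-values were Benjamini-Hochberg adjusted over all genes tested, with a threshold of 0.05. The test was tried on simulated data. Alternatives were edgeR's quasi-likelihood test, DESeq2 1.42.0, other scalings, filters and pseudocounts, a replicate block, and libraries left out. CPM used TMM library sizes. Exact permutation tests used all 924 assignments of 6 against 6 animals. With animals left out, they used all assignments of the animals that remained. Class II genes were receptor genes without -ps outside the interval from Rrm1 to Smpd1 on chromosome 7. The genes and lists were chosen with earlier results of these data known, and coding-sequence identity was added after the files were seen. Named were the 10 highest genes, up to 6 with the smallest p in each direction, the most and least variable, cluster ends, the 3 untested genes with most reads, up to 3 genes per list and up to 4 neighbours.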

Additional observations from a re-analysis of the deposited data

Results flagged for a closer look

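In 8 of 94 sets of 6 values (each named gene or sum in each genotype), 1 animal stood far from the other 5 of its genotype, where chance gives about 4.7, or 1 in 20. Deletion animals gave 2 of these. Olfr1441, the last gene of cluster 2, was at 10.99 normalized counts in deletion replicate 3 and at 16.9 to 19.6 in its 5 fellows. Gng13 was at 2320 in deletion replicate 2 and at 952 to 1299 in the 5 others.

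Wild-type animals gave the other 6. Wild-type replicate 1 had 172 normalized counts of Olfr1420 and 59.6 of Olfr1431, where the others had 115 to 136 and 40.7 to 45.9. Adrbk2 was at 498 in wild-type replicate 5 and at 435 to 457 in the others. Atf5 was at 10907 in wild-type replicate 4 and at 9640 to 10002 in the others. Wild-type replicate 2 had summed CPM of 103 in cluster 2 and 156 in cluster 4, against 77.2 to 84.8 and 119 to 132 in the other wild-type animals.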

How the results depend on the processing

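Under all 21 alternatives to the main limma setting, no gene of the 57 was called in either direction, and 38 to 48 had a positive fold change. The number at an unadjusted p under 0.05 on the higher side was 11 with no filter on low values, 11 without deletion replicates 2 and 3, and 4 to 12 with each replicate left out. The number of genes tested differs with the filter and the libraries used, so these counts do not share a single total. The share of all genes under each of these settings is not given here. Without deletion replicates 2 and 3, the differences (deletion minus wild-type) were 0.00333 for the ratio to neuron markers (exact permutation p = 0.043), 15.7 CPM for cluster 2 (p = 0.038) and 25.5 CPM for cluster 4 (p = 0.019). With each replicate left out, they ran from 0.00205 to 0.00366, 9.08 to 14.9 and 14.2 to 24.6, and the summed CPM difference from 21.8 to 38.5. The highest exact permutation p with a replicate left out was 0.21, 0.154 and 0.145 in that order, and 0.201 for the summed CPM. The differences changed sign for the class II share (-0.0897 to 0.0603 percentage points) and cluster 1 (-0.30 to 1.71 CPM). For the 5 highest genes in place of 10, the share difference was 0.0313 percentage points. These causes were not tested.

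Single log2 fold changes that changed sign with a replicate left out were those of Olfr1443 (-0.10 to 0.0565), Olfr1420 (-0.0121 to 0.14), Olfr1463 (-0.0752 to 0.13), Olfr1442 (-0.18 to 0.0289), Olfr1480 (-0.32 to 0.18), Reep6 (-0.10 to 0.0137) and AC129014.2 (-0.13 to 0.0280). Without deletion replicates 2 and 3, Olfr1480 was at 0.0916 and Hspa5 at 0.0106. The shared replicate numbers do not pair the animals: same-numbered animals correlated at -0.24 to -0.01, and none correlated best with its own number. With the replicate number as a block, 0 of the 57 genes were called and 5 had an unadjusted p under 0.05 on the higher side. The share of all genes with this block is not given here. The summed CPM difference of 29.3 had p = 0.25 in an exact sign-flip test. Since the numbers do not pair the animals, these results rest on an arbitrary pairing and decide nothing about the difference. Depth limits the low genes: the 7 untested genes held 320 reads in all.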
